A study of Mus musculus with 10 samples.

Results

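Cadherins, claudins and other epithelial junction genes were followed in mouse embryonic stem (ES) cells as they left naive pluripotency, with and without induction of Esrrb, a nuclear receptor of the naive network. The 10 genes were picked by name out of the 31053 genes in the count files, with earlier results of these data known. The shares over all genes given beside them, and beside the other lists and motifs, are thus for scale and test nothing. They are the cadherins Cdh1 and Cdh2, the claudins Cldn4, Cldn6 and Cldn7, the junctional adhesion molecule Jam2, the desmosome gene Dsp, the surface protein gene Epcam, the splicing regulator Esrp1 and the clathrin adaptor subunit Ap1m2. All 10 passed the filter on low counts that left 11215 genes for testing.

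All libraries came from E14 ES cells that carry a stably integrated Esrrb construct switched on by doxycycline (DOX). Cells collected at 96 h with DOX (3 libraries) and at 96 h without DOX (3 libraries) had been moved from 2iL into N2B27, a serum-free medium, a day after plating. Cells in 2iL without DOX (4 libraries) stayed in N2B27 with the GSK3 inhibitor CHIR99021, the MEK inhibitor PD0325901 and LIF. Libraries are named by experiment and number as in their titles (exp1_1 is experiment 1, library 1). No cells without the construct and none with DOX in 2iL were analysed here, so effects of DOX and of Esrrb cannot be told apart. Whether the line is a single clone, and whether replicates came from separate cultures, the sources used here do not say, so p-values measure the spread between these libraries.

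Cells of an epithelium are held together by adherens junctions, where cadherins bind neighbouring cells through their outer domains and the actin skeleton through catenins. Desmosomes link intermediate filaments across the same contacts, and tight junctions seal the space between cells with claudin strands. E-cadherin (Cdh1) also holds ES cells in compact colonies, and its replacement by N-cadherin (Cdh2) is a textbook mark of cells that leave an epithelium, during gastrulation and neural development among others.

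Reads were counted at the 3′ ends of polyA RNA, 1253620 to 4715450 per library in genes, and levels below are CPM (the read count relative to the library total, scaled by TMM), with mean ± SD over libraries. A read was worth 0.216 to 0.737 CPM. The shallowest library, 96 h DOX exp1_2, stood apart: 14.8% of its reads fell on Gm42418, against 3.39% to 6.61% in the other 9, and its file carries a later date than theirs. Summed unscaled CPM of 8 fibroblast markers was 2102 in that library, with none at 0, and 10.8 and 23.9 in the other DOX libraries. The sum was 17.0 to 19.9 without DOX and 1.82 to 9.39 in 2iL, and the fibroblast marker Postn was at 0 in those 9 libraries. In 96 h DOX exp1_2 the sum was mostly Col1a2 (1288 CPM), Col1a1 (595 CPM) and Col3a1 (105 CPM). Lum held 1 read there, and Thy1 held 16.8 CPM, against 14.0 CPM in no DOX exp1_2. Esrrb itself held 12.98, 29.2 and 16.0 unscaled CPM with DOX (exp1_1, exp2_1, exp1_2), against 13.4 to 31.3 without DOX and 218 to 344 in 2iL. Whether transcripts of the construct share the 3′ end of Esrrb, and so would be counted there, is not stated, so these reads do not check the DOX label. Fits are therefore given for all libraries labelled DOX, and without exp1_2 where the value bears on a call.

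With DOX at 96 h against no DOX, 6 of the 10 genes changed by edgeR's quasi-likelihood test (adjusted p below 0.05 over all tested genes), a test that called 3.10% of all 11215 genes. Cdh1, Cldn7, Esrp1 and Ap1m2 fell, and Dsp and Jam2 rose; genes called lower were 0.945% of all genes, and genes called higher 2.16%. Against 2iL, no DOX cells at 96 h had higher Cldn6, Cldn7, Epcam, Esrp1 and Ap1m2 (5 genes, with 11.5% of all genes called higher) and lower Jam2 (1 gene, with 8.90% called lower); 20.4% of all genes were called in that comparison. DOX cells had higher Cldn6, Cldn7, Epcam, Esrp1 and Dsp than 2iL cells (5 genes, with 9.84% of all genes called higher) and lower Cldn4 and Jam2 (2 genes, with 6.83% called lower), where 16.7% of all genes were called. The comparisons share libraries, so their counts are not independent of each other. In bulk RNA, fewer cells of a type and less RNA per cell cannot be told apart.

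**Figure D1:**
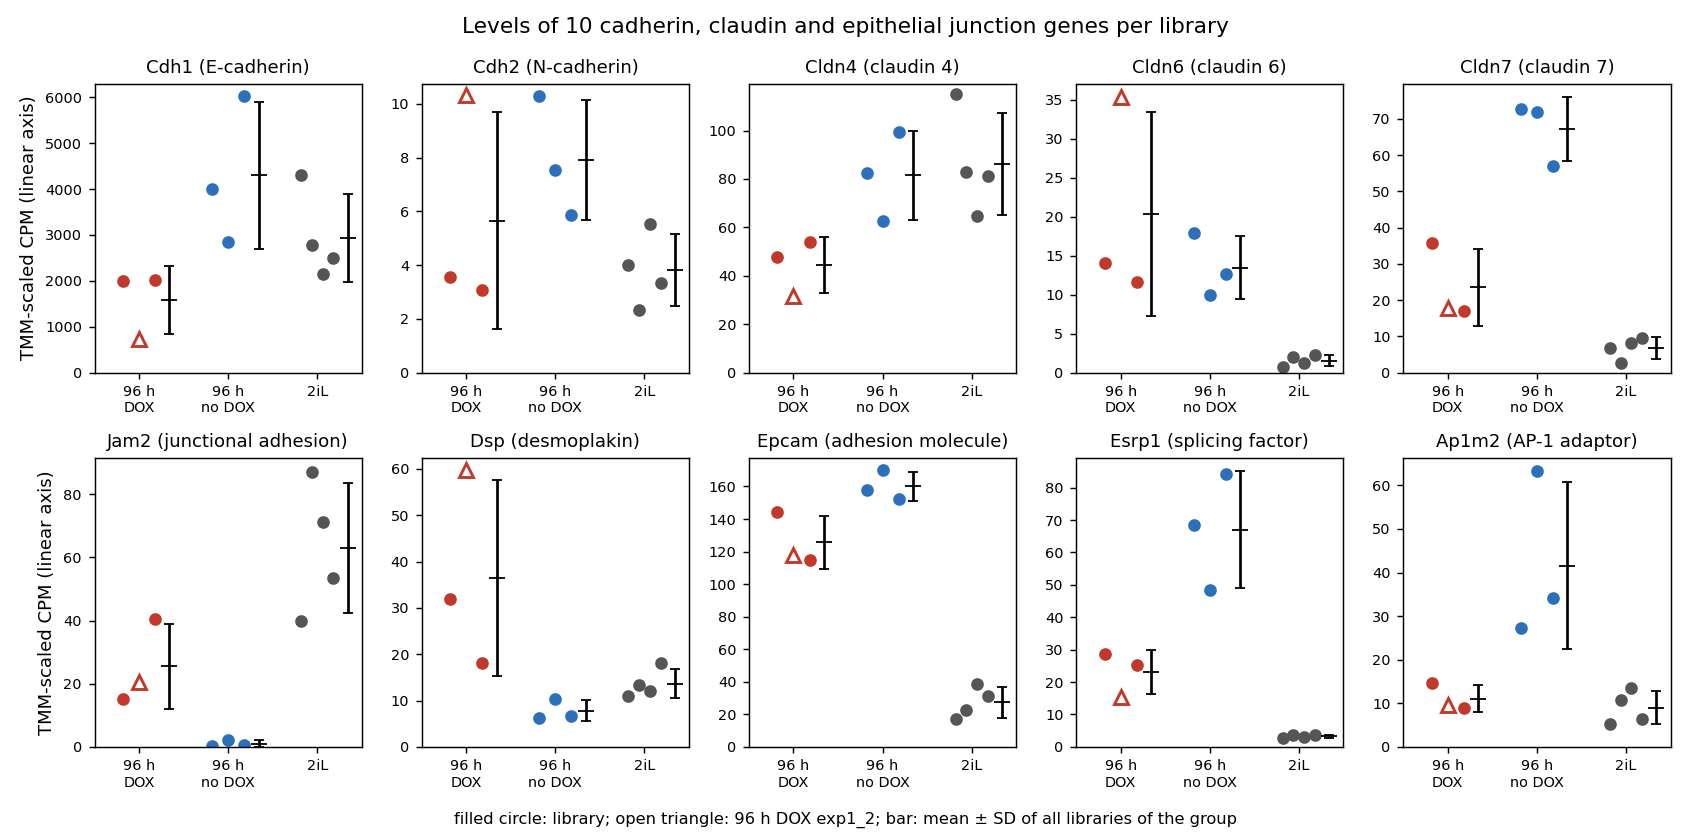
Levels of the 10 genes in every library, in TMM-scaled CPM on a linear axis per gene, for 96 h DOX, 96 h no DOX and 2iL; each point is 1 library, the open triangle is 96 h DOX exp1_2, and bars are mean ± SD over the libraries of a group. Esrp1 and Cldn7 are highest without DOX and lowest in 2iL, Jam2 is nearly absent without DOX, and Dsp is highest with DOX.

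The promoters of 3 of the genes that changed with DOX are shown because one short motif recurs in them. RefSeq windows on GRCm38.p6 (250 bases before to 50 after an annotated start) were at hand for 6 of the 10 genes, 7 windows in all. Capitals mark CAGGTG or its reverse complement CACCTG, the E-box that Snail and Zeb repressors bind. Each window is read along its gene's strand. Ap1m2 is on the minus strand at chr9:21312284-21312583, the downstream start of Cldn7 is on the plus strand at chr11:69965171-69965470, and Dsp is on the plus strand at chr13:38151044-38151343.
Ap1m2: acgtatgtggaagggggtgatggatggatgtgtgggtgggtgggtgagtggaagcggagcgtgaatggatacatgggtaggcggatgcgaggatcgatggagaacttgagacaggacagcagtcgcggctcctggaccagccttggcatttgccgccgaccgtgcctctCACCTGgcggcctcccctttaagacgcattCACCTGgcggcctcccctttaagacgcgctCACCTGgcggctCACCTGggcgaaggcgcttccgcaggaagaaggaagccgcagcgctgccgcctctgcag
Cldn7: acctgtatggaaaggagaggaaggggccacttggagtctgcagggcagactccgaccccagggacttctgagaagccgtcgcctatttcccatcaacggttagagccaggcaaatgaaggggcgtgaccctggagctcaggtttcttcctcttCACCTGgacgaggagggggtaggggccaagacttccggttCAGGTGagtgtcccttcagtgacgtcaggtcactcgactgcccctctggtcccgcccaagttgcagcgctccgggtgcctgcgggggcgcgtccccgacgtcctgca
Dsp: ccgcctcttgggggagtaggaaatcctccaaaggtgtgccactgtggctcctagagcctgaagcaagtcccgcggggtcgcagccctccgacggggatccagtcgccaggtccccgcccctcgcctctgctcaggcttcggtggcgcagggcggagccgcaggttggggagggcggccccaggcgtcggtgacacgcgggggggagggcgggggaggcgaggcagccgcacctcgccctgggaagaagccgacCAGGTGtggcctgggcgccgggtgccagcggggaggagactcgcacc

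The Ap1m2 window held 4 E-boxes, this Cldn7 window 2 and the Dsp window 1. The window of the other Cldn7 start, chr11:69964529-69964828, held none, and those of Cldn4, Cldn6 and Epcam held 2 each. Of all 32851 RefSeq promoter windows of the same length, 20.2% held the motif. The Esrrb motif TCAAGGTCA was in 0 of the 7 windows and in 0.423% of all windows, and the Grainyhead motif AACCGGTT in 0 of the 7 and in 0.146%, on either strand. No match overlapped another. These are matches of letters, and no binding was measured.

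Cdh1 (ENSMUSG00000000303, chromosome 8, 106603351 to 106670246, plus strand, GRCm38), the cadherin of adherens junctions, fell with DOX. It held 1997, 2008 and 727 CPM with DOX (exp1_1, exp2_1, exp1_2), against 4006, 2854 and 6034 CPM without DOX (exp1_1, exp1_2, exp2_2). Every DOX library lay below every library without DOX, and the library that stands apart was the lowest of all. The means were 1577 ± 736 and 4298 ± 1610 CPM (n = 3 each), a log2 fold change of -1.44 ± 0.37 (SE; adjusted p = 0.0356, edgeR's quasi-likelihood test). Without 96 h DOX exp1_2 it was -1.10 (adjusted p = 0.0497). The call was lost in 4 of 10 fits that each left out 1 library: 96 h no DOX exp2_2 (adjusted p = 0.205, quasi-likelihood), 96 h no DOX exp1_1 (0.0954), 2iL exp2_2 (0.0537) and 2iL exp2_1 (0.0523).

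In 2iL, Cdh1 held 4311, 2775, 2149 and 2490 CPM (exp1_1, exp1_2, exp2_1, exp2_2), and 2 of the 3 no DOX libraries fell within that range. The difference of no DOX from 2iL did not pass the test (log2 fold change 0.55 ± 0.34, 95% interval -0.15 to 1.26, adjusted p = 0.296 by quasi-likelihood), and the 2 experiments gave -0.05 and 1.38. DOX libraries lay below every 2iL library, yet this difference missed the threshold too (-0.89 ± 0.35, interval -1.62 to -0.17, adjusted p = 0.0855, quasi-likelihood). Thus Cdh1 ran from lowest with DOX to highest without, with 2iL between, and of these steps the test called DOX against no DOX alone. E-cadherin mRNA was abundant in each group.

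Cdh2 (ENSMUSG00000024304, chromosome 18, 16588877 to 16809246, minus strand), the N-cadherin of neural and mesenchymal cells, was rarely read. It held 3.56, 3.07 and 10.3 CPM with DOX, 10.3, 7.55 and 5.88 CPM without DOX, and 3.996, 2.34, 5.53 and 3.33 CPM in 2iL. Those levels rest on 8 to 35 reads per library, and the high DOX value is from exp1_2. No comparison passed the test. The no DOX libraries all lay above the 2iL libraries, with a log2 fold change of 1.05 ± 0.57 (interval -0.15 to 2.25, adjusted p = 0.234, edgeR's quasi-likelihood test). With DOX against no DOX it was -0.58 ± 0.63 (interval -1.88 to 0.73), and -1.24 without exp1_2, where the test did not pass either (adjusted p = 0.719 and 0.509, quasi-likelihood). A rise of Cdh2 beside the fall of Cdh1 was not detectable at this depth.

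Both cadherins were set beside 9 others of the family, of which 3 had enough reads to be tested. Cdh3 (P-cadherin), a neighbour of Cdh1 that ends 46053 bases before it on the same strand, went the other way. It held 37.8, 33.5 and 25.05 CPM with DOX, against 10.9, 13.4 and 8.81 CPM without DOX and 8.48 to 13.7 CPM in 2iL. No DOX-treated library overlapped either other group. Cdh3 rose with DOX (log2 fold change 1.55 ± 0.36 against no DOX, adjusted p = 0.0181, and 1.54 ± 0.33 against 2iL, adjusted p = 0.00258, quasi-likelihood), and against no DOX it was called without exp1_2 as well (1.68, adjusted p = 0.0171). The call against no DOX was lost without no DOX exp1_1 (adjusted p = 0.0825), no DOX exp2_2 (0.0898), DOX exp1_1 (0.0718) or DOX exp2_1 (0.0551, quasi-likelihood).

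Among claudins, Cldn7 (ENSMUSG00000018569, chromosome 11, 69964779 to 69967885, plus strand) was far above 2iL at 96 h without DOX, and lower with DOX. It held 35.9, 16.9 and 17.7 CPM with DOX, 72.8, 71.8 and 57.0 CPM without DOX, and 6.66, 2.63, 8.29 and 9.61 CPM in 2iL. The 3 groups did not overlap. Without DOX the level was 67.2 ± 8.86 CPM, against 6.80 ± 3.03 CPM in 2iL (log2 fold change 3.31 ± 0.38, adjusted p = 1.66e-06, n = 3 and 4, edgeR's quasi-likelihood test). With DOX it was 23.5 ± 10.7 CPM, which is -1.49 ± 0.38 on the log2 scale relative to no DOX (adjusted p = 0.0335) and 1.82 ± 0.38 relative to 2iL (adjusted p = 0.00204, quasi-likelihood). When single libraries were left out, DOX against no DOX missed the threshold in 5 of 10 fits, those without 96 h no DOX exp1_1 (adjusted p = 0.129), exp1_2 (0.0929) or exp2_2 (0.0694) and 96 h DOX exp2_1 (0.140) and exp1_2 (0.0903, quasi-likelihood).

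Cldn6 (ENSMUSG00000023906, chromosome 17, 23679249 to 23682446, plus strand), a claudin of early embryonic epithelia, was almost unread in 2iL. It held 14.0, 11.7 and 35.4 CPM with DOX and 17.9, 9.92 and 12.6 CPM without DOX, against 0.666, 2.05, 1.23 and 2.22 CPM in 2iL, where the libraries had 2 to 7 reads each. Both 96 h groups lay wholly above 2iL and overlapped each other. The log2 fold change was 3.65 ± 0.54 with DOX against 2iL and 3.10 ± 0.53 without DOX against 2iL (adjusted p = 6.51e-05 and 0.000211, quasi-likelihood), and the value with DOX was 3.03 with library DOX exp1_2 left out. DOX against no DOX gave 0.55 ± 0.49 (interval -0.47 to 1.58, adjusted p = 0.651, quasi-likelihood), and -0.07 without exp1_2, the library with the highest level.

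Cldn4 (ENSMUSG00000047501, chromosome 5, 134945119 to 134946934, minus strand), a claudin that tightens the paracellular seal, did not differ by the test between no DOX and 2iL cells. It held 47.8, 53.8 and 31.7 CPM with DOX, 82.5, 62.8 and 99.3 CPM without DOX, and 115, 82.8, 64.8 and 81.3 CPM in 2iL. All 3 DOX libraries were below the other 7. The log2 fold change of DOX against 2iL was -0.93 ± 0.27 (adjusted p = 0.0189, edgeR's quasi-likelihood test). That call was lost without 96 h DOX exp1_2 (-0.76, adjusted p = 0.0597) and without 2iL exp1_1 (adjusted p = 0.0702, quasi-likelihood). Against no DOX, the difference missed the threshold (-0.86 ± 0.28, interval -1.44 to -0.27, adjusted p = 0.117), and no DOX against 2iL gave -0.08 ± 0.26 (interval -0.61 to 0.45, adjusted p = 0.879, quasi-likelihood).

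The next claudin along the chromosome from Cldn4 is Cldn3, 39279 bases away on the opposite strand with 0 annotated genes between. It held 7.13, 4.61 and 5.16 CPM with DOX, against 22.6, 15.3 and 37.9 CPM without DOX and 9.325 to 21.8 CPM in 2iL. Its DOX libraries too lay below all others. Cldn3 fell with DOX against no DOX (log2 fold change -2.13 ± 0.45, adjusted p = 0.00975) and against 2iL (-1.36, adjusted p = 0.0359, quasi-likelihood; -1.31 and 0.0733 without exp1_2). The call against no DOX was lost without no DOX exp2_2 (adjusted p = 0.0814) or DOX exp2_1 (0.0530), and that against 2iL without any 1 DOX library (0.0526 to 0.116), 2iL exp2_1 (0.0674) or 2iL exp2_2 (0.127, quasi-likelihood). Of 15 further claudins, 3 were tested and this test called Cldn3 alone in any comparison.

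Jam2 (ENSMUSG00000053062, chromosome 16, 84774123 to 84825928, plus strand), an adhesion molecule of the immunoglobulin superfamily at cell contacts, nearly vanished without DOX and was retained in part with it. It held 15.2, 40.6 and 20.6 CPM with DOX, 0.294, 2.16 and 0.588 CPM without DOX, and 39.96, 87.1, 71.25 and 53.6 CPM in 2iL. The no DOX libraries, with 13 reads in all, stood far below the other groups, and the highest DOX library (exp2_1) reached the lowest 2iL library. Without DOX the mean was 1.01 ± 1.00 CPM, against 62.99 ± 20.6 CPM in 2iL, a log2 fold change of -5.79 ± 0.54 (adjusted p = 1.60e-07, n = 3 and 4, edgeR's quasi-likelihood test). Without no DOX exp1_2 it was -7.04. This was the largest change among the 10 genes in the comparison of no DOX with 2iL.

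In DOX libraries Jam2 averaged 25.5 ± 13.4 CPM, 4.49 ± 0.55 higher on the log2 scale than without DOX (interval 3.34 to 5.64, adjusted p = 4.84e-05, n = 3 each, quasi-likelihood). It was 4.60 without DOX exp1_2, and 5.74 without no DOX exp1_2, which holds 10 of the 13 no DOX reads; the call was kept without any 1 library, over a range of 3.96 to 5.74. DOX against 2iL gave -1.30 ± 0.39 (adjusted p = 0.0261), a difference whose groups touched. It was lost without 96 h DOX exp1_1 (adjusted p = 0.128), 96 h DOX exp1_2 (0.0629), 2iL exp1_2 (0.0816) or 2iL exp2_1 (0.0775, quasi-likelihood).

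The related gene Jam3 was lower with DOX than in 2iL. It averaged 15.8 ± 2.85 CPM with DOX and 41.7 ± 15.3 CPM in 2iL (log2 fold change -1.40, adjusted p = 0.0104, quasi-likelihood; 0.0536 without DOX exp1_1). With DOX against no DOX its log2 fold change was -0.66 and did not pass (adjusted p = 0.435, quasi-likelihood).

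Dsp (ENSMUSG00000054889, chromosome 13, 38151294 to 38198577, plus strand) encodes desmoplakin, which ties desmosomes to keratin filaments. It held 31.8, 18.1 and 59.7 CPM with DOX, 6.17, 10.4 and 6.76 CPM without DOX, and 10.99, 13.5, 11.98 and 18.1 CPM in 2iL. DOX libraries lay above every other, the lowest of them only just above the top 2iL library, and exp1_2 was highest. Dsp averaged 36.5 ± 21.2 CPM with DOX and 7.76 ± 2.26 CPM without DOX (n = 3 each), a log2 fold change of 2.19 ± 0.43 (interval 1.29 to 3.09, adjusted p = 0.00599, edgeR's quasi-likelihood test). Without exp1_2 the rise was 1.67 (adjusted p = 0.0383), and no single library ended the call. Against 2iL, the rise with DOX of 1.39 ± 0.39 (adjusted p = 0.016) was 0.88 without exp1_2 and no longer called (adjusted p = 0.163, quasi-likelihood). No DOX against 2iL gave -0.80 ± 0.41 (interval -1.65 to 0.05, adjusted p = 0.196, quasi-likelihood), though these groups did not overlap.

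Perp, another gene of desmosomes and a p53 target, moved opposite to Dsp. It held 6.65, 6.76 and 6.63 CPM with DOX, against 31.1, 29.3 and 21.7 CPM without DOX and 2.59 to 6.14 CPM in 2iL. The DOX libraries sat just above 2iL and well below no DOX. Perp fell by 2.03 ± 0.42 on the log2 scale with DOX against no DOX (adjusted p = 0.0091, quasi-likelihood; 0.0602 without no DOX exp1_1), and was 2.77 ± 0.40 higher without DOX than in 2iL (adjusted p = 2.79e-05). Of the 10 further desmosome genes listed, 6 were tested; Perp alone was called with DOX against no DOX, and 3 rose without DOX against 2iL.

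Epcam (ENSMUSG00000045394, chromosome 17, 87635979 to 87651129, plus strand), a surface protein of epithelial and ES cells that associates with claudins such as Cldn7, rose in both 96 h groups against 2iL. It held 144, 115 and 118 CPM with DOX and 158, 169.9 and 152 CPM without DOX, against 17.3, 22.5, 38.7 and 31.4 CPM in 2iL. No groups overlapped, although DOX and no DOX lay close. The log2 fold change was 2.19 ± 0.25 with DOX against 2iL and 2.54 ± 0.25 without DOX against 2iL (adjusted p = 4.47e-06 and 3.86e-07, quasi-likelihood). DOX against no DOX gave -0.35 ± 0.26 (interval -0.89 to 0.20, adjusted p = 0.577, quasi-likelihood). Whether this change differed from that of Cldn7 was not tested.

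Esrp1 (ENSMUSG00000040728, chromosome 4, 11331933 to 11386783, minus strand) encodes an RNA-binding protein that sets epithelial splicing patterns. It held 28.8, 25.2 and 15.5 CPM with DOX, 68.4, 48.3 and 84.3 CPM without DOX, and 2.66, 3.51, 3.07 and 3.70 CPM in 2iL. The 3 groups stood fully apart. Without DOX it averaged 67.01 ± 18.05 CPM, against 3.24 ± 0.462 CPM in 2iL, 20.5-fold higher (log2 fold change 4.36 ± 0.34, adjusted p = 2.03e-08, n = 3 and 4, edgeR's quasi-likelihood test). With DOX it averaged 23.1 ± 6.88 CPM, -1.50 ± 0.32 against no DOX (adjusted p = 0.0107) and 2.85 ± 0.35 against 2iL (adjusted p = 7.96e-06, quasi-likelihood).

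Esrp1 was no longer called between DOX and no DOX without 96 h no DOX exp1_1 (adjusted p = 0.0541) or exp2_2 (0.0814, quasi-likelihood), and it was still called without DOX exp1_2 (-1.31, adjusted p = 0.0339). The lincRNA Gm26663 overlaps the 3′ end of Esrp1 on the other strand, and without a stated strand setting reads of both cannot be told apart; Gm26663 itself was given 0 reads in each of the 10 libraries. Its paralog Esrp2, which acts on the same exons, was not called in any comparison (log2 fold change 0.41, -0.18 and 0.24 for DOX against no DOX, no DOX against 2iL and DOX against 2iL).

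Ap1m2 (ENSMUSG00000003309, chromosome 9, 21294275 to 21312337, minus strand) encodes the epithelial mu subunit of the clathrin adaptor AP-1, which sorts cargo to the basolateral membrane. It held 14.7, 8.91 and 9.58 CPM with DOX, 27.3, 63.4 and 34.1 CPM without DOX, and 5.33, 10.8, 13.5 and 6.28 CPM in 2iL. DOX libraries overlapped 2iL, and the no DOX libraries were above both. Ap1m2 averaged 11.1 ± 3.19 CPM with DOX and 41.6 ± 19.2 CPM without DOX, a log2 fold change of -1.89 ± 0.43 (adjusted p = 0.0148, n = 3 each, edgeR's quasi-likelihood test). No DOX against 2iL gave 2.20 ± 0.39 (adjusted p = 0.000285), and DOX against 2iL 0.31 ± 0.41 (interval -0.54 to 1.17, adjusted p = 0.662, quasi-likelihood). The call with DOX was lost without 96 h no DOX exp1_2 (-1.44, adjusted p = 0.123) and without 96 h DOX exp2_1 (adjusted p = 0.0705, quasi-likelihood).

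Of the other 7 subunit genes of AP-1, Ap1g2 rose with DOX against no DOX, to 10.2 ± 5.05 CPM against 1.68 ± 0.146 CPM (log2 fold change 2.57 ± 0.64, adjusted p = 0.03, quasi-likelihood). Its call was lost without any 1 library of either group (adjusted p = 0.0630 to 0.150) except DOX exp1_1. In 2iL, Ap1g2 averaged 7.02 ± 2.99 CPM, and its DOX and 2iL libraries overlapped (4.75 to 14.8 and 3.33 to 10.7 CPM). Ap1g2 was lower without DOX than in 2iL (log2 fold change -2.05 ± 0.61, adjusted p = 0.0200, quasi-likelihood). That call was kept in 7 of 10 fits that each left out 1 library. Ap1s3 was 3.40 ± 0.64 higher on the log2 scale without DOX than in 2iL (adjusted p = 0.000538), and Ap1s1 was lower (-1.04 ± 0.30, adjusted p = 0.0162, quasi-likelihood; 0.0578 without no DOX exp1_1 and 0.0799 without no DOX exp1_2).

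**Figure D2:**
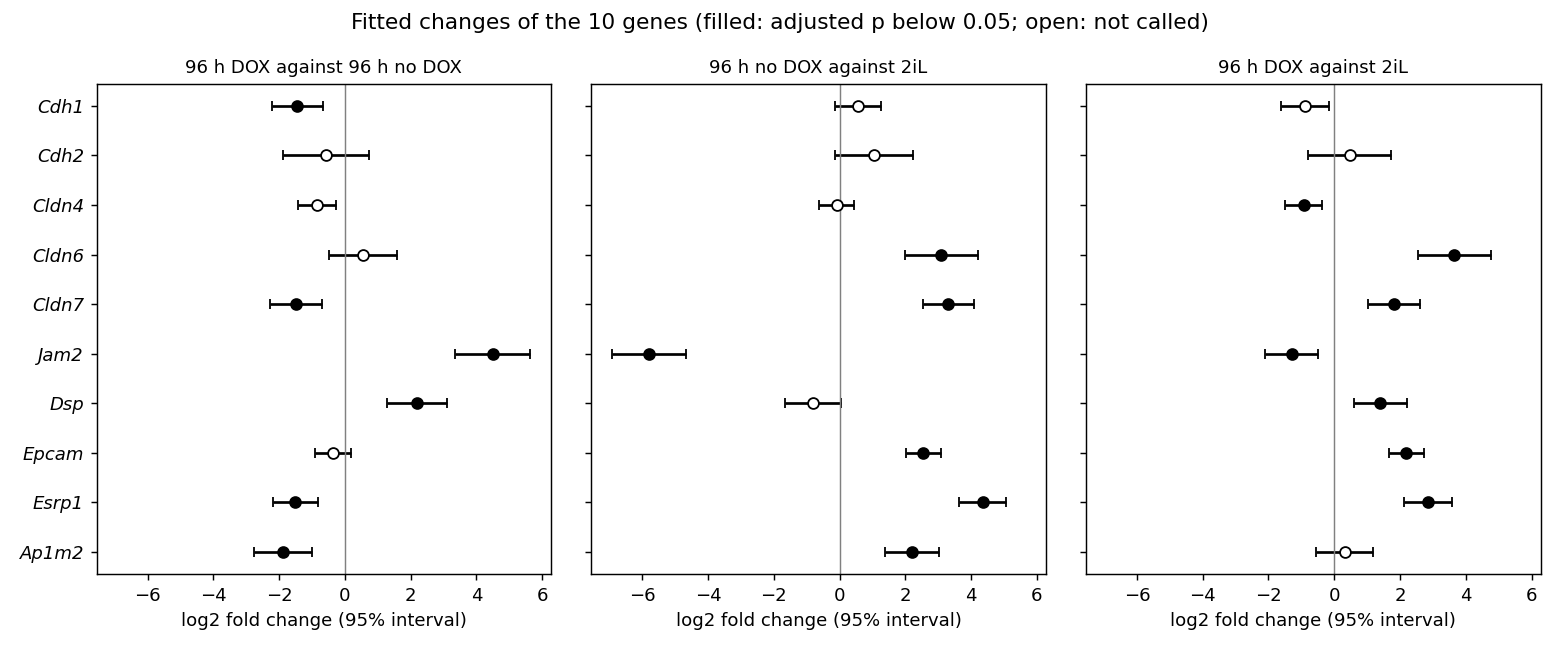
Log2 fold changes of the 10 genes with 95% intervals for 96 h DOX against 96 h no DOX, 96 h no DOX against 2iL and 96 h DOX against 2iL; filled points passed edgeR's quasi-likelihood test at an adjusted p below 0.05. Jam2 changed most, at 4.49 with DOX against no DOX and -5.79 without DOX against 2iL, while Cdh2 intervals span 0 throughout.

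Read across the 10 genes, values of the groups did not overlap for 8 genes with DOX against no DOX (18.7% of all tested genes), for 8 without DOX against 2iL (30.9%) and for 7 with DOX against 2iL (27.6%). The median log2 fold change of the 10 was -0.72, 1.62 and 0.93 in these comparisons, against -0.02, 0.00 and 0.02 over all tested genes. Several patterns of level can be read from the tests. Esrp1 and Cldn7 ran from 2iL (lowest) through DOX to no DOX (highest), each step called, while Ap1m2 was highest without DOX and its step between DOX and 2iL was not called. Cldn6 and Epcam were high in both 96 h groups. Jam2 had the inverse order, lowest without DOX and highest in 2iL, and Dsp was highest with DOX.

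Each of the 6 calls with DOX against no DOX had 1 direction in both experiments. This was fixed in advance, because the DOX and no DOX values of these genes did not overlap. The log2 fold change in experiments 1 and 2 was -1.33 and -1.59 for Cdh1, -1.38 and -1.75 for Cldn7, and -1.35 and -1.74 for Esrp1. It was -1.86 and -1.93 for Ap1m2 and 2.43 and 1.42 for Dsp. Jam2 rose by 3.69 in experiment 1, and in experiment 2 it held 132 reads with DOX in exp2_1 against 2 reads without DOX in exp2_2. Experiment 2 had 1 library in each 96 h group and gave no test of its own; fitted on experiment 1 alone, Dsp and Jam2 were called (adjusted p = 0.0245 and 0.00911, quasi-likelihood), and Cdh1, Cldn7, Esrp1 and Ap1m2 were not (0.343, 0.230, 0.231 and 0.140). A quasi-likelihood test of the difference between experiments called 0, 1 and 0 of all 11215 genes in DOX against no DOX, no DOX against 2iL and DOX against 2iL, none of them among the 10 (smallest adjusted p = 0.672), so it does not show that the experiments gave like changes. Unadjusted p was below 0.05 for Cldn7, Epcam and Dsp with DOX against 2iL. Without DOX against 2iL, the values in experiments 1 and 2 were 3.29 and 2.87 for Cldn6, 3.97 and 2.67 for Cldn7, 3.04 and 2.11 for Epcam, 4.21 and 4.63 for Esrp1, and 2.48 and 1.77 for Ap1m2, all called in experiment 1 alone. With DOX against 2iL they were 1.88 and 0.27 for Dsp, 2.58 and 0.92 for Cldn7, 2.72 and 1.71 for Epcam, and 2.87 and 2.89 for Esrp1.

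To see how other junction genes behaved, 95 more were grouped by role, of which 94 are in the files and 65 had enough reads to be tested. In DOX against no DOX, 5 were called higher and 3 lower, where 2.16% of all tested genes were higher and 0.945% lower. In no DOX against 2iL, 20 were higher and 4 lower, beside 11.5% and 8.90% of all genes. In DOX against 2iL, 13 were higher and 5 lower, beside 9.84% and 6.83%. Their median log2 fold changes were -0.13, 0.64 and 0.49, against -0.02, 0.00 and 0.02 over all tested genes. The 8 calls with DOX were Cdh3, Rbm47, Ap1g2, Vim and Zeb1 (higher) and Cldn3, Perp and St14 (lower); 5 genes were called without 96 h DOX exp1_2, 4 without DOX exp2_1, 3 without no DOX exp1_2, and 2 without no DOX exp1_1 or without no DOX exp2_2. The 24 calls between no DOX and 2iL became 15 when no DOX exp1_2 was left out.

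Tight junction genes made up 10 of the 20 that were higher without DOX than in 2iL, out of 20 tested, and 0 were lower; over all genes, 11.5% were higher and 8.90% lower. Cgn, which encodes cingulin of the cytoplasmic plaque, averaged 35.9 ± 8.95 CPM without DOX, against 1.74 ± 0.995 CPM in 2iL (log2 fold change 4.35 ± 0.45, adjusted p = 5.35e-07, quasi-likelihood). Its relative Cgnl1 averaged 93.6 ± 22.6 CPM without DOX, against 11.9 ± 3.33 CPM in 2iL (2.96 ± 0.30, adjusted p = 3.79e-07, quasi-likelihood). Between DOX and no DOX, 0 of these 20 genes were called in either direction by edgeR's quasi-likelihood test, DESeq2 or limma-voom, and 7 had an unadjusted p below 0.05; their median log2 fold change was -0.56, against -0.02 over all genes. With DOX against 2iL, 5 were higher, Cgn and Cgnl1 among them (3.59 and 3.78), and Jam3 was lower.

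Of the 11 catenin, nectin and plaque genes tested, 0 were called with DOX against no DOX by edgeR's quasi-likelihood test, 4 had an unadjusted p below 0.05, and DESeq2 called 1 and limma-voom 0. Nectin2, which starts contacts before cadherins, was higher in both 96 h groups than in 2iL (log2 fold change 1.07 with DOX and 1.13 ± 0.23 without). Afdn, which links nectins to actin, was likewise higher (0.82 with DOX and 0.81 ± 0.22 without); its calls were lost without 2iL exp1_1 (adjusted p = 0.0520, with DOX) and without no DOX exp1_1 (0.0531, quasi-likelihood). The delta-catenin gene Ctnnd2 was lower in both (-2.88 with DOX, or -3.78 with library DOX exp1_1 left out, and -2.40 ± 0.60 without DOX). Beta-catenin itself, Ctnnb1, gave log2 fold changes of -0.55 with DOX against no DOX and 0.01 without DOX against 2iL, and neither passed (adjusted p = 0.267 and 0.979, quasi-likelihood).

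Among 7 tested regulators of epithelial identity, the Grainyhead factor Grhl2 was higher at 96 h in both groups. It averaged 35.5 ± 8.25 CPM with DOX and 34.9 ± 6.51 CPM without DOX, against 4.37 ± 3.996 CPM in 2iL (log2 fold change 3.06 and 3.02 ± 0.44, adjusted p = 5.79e-05 and 3.51e-05, quasi-likelihood). Without 2iL exp2_2, the highest 2iL library, these were 3.92 with DOX and 3.86 without DOX. DOX against no DOX gave 0.04 (adjusted p = 0.979). Rbm47, an RNA-binding protein gene, rose with DOX to 32.5 ± 3.23 CPM against 8.01 ± 4.43 CPM without DOX (2.00 ± 0.49, adjusted p = 0.0269, quasi-likelihood). That call was lost without any 1 library of either group (adjusted p = 0.0528 to 0.118) except DOX exp1_1.

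Among 4 tested serine protease and inhibitor genes, St14 (matriptase), which cleaves Epcam, fell with DOX. It held 38.5, 29.5 and 8.84 CPM with DOX, against 61.96, 116 and 74.6 CPM without DOX and 38.1 to 45.5 CPM in 2iL. DOX and no DOX did not overlap, and exp1_2 was lowest. The log2 fold change with DOX against no DOX was -1.65 ± 0.36 (adjusted p = 0.0118), or -1.31 without exp1_2 (adjusted p = 0.0177, quasi-likelihood), and was not called without no DOX exp1_2 (adjusted p = 0.0697). Prss8 (prostasin), which acts with St14, was higher without DOX than in 2iL (39.0 ± 16.9 and 6.43 ± 3.02 CPM, adjusted p = 0.000714, quasi-likelihood).

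Of the mesenchymal transition factors and vimentin, 4 of 8 were tested, and 2 rose with DOX against no DOX. Vim, the intermediate filament of mesenchymal cells, held 78.9, 79.0 and 386 CPM with DOX, against 49.9, 34.5 and 38.8 CPM without DOX and 112 to 172 CPM in 2iL. Zeb1, a repressor of Cdh1, held 9.27, 10.8 and 44.9 CPM with DOX, against 2.64, 5.61 and 4.11 CPM without DOX and 6.99 to 14.0 CPM in 2iL. In both genes exp1_2, the library with the high fibroblast marker sum, was far above the other 9. The log2 fold change with DOX was 2.12 ± 0.46 for Vim (adjusted p = 0.0142) and 2.30 ± 0.58 for Zeb1 (adjusted p = 0.0329, quasi-likelihood). Without exp1_2 it was 0.94 for Vim (adjusted p = 0.0468) and 1.26 for Zeb1, where the test did not pass (adjusted p = 0.334, quasi-likelihood). Both calls were also lost without any 1 of the no DOX libraries (adjusted p = 0.0602 to 0.136 for Vim and 0.0548 to 0.150 for Zeb1), and limma-voom called neither. Apart from exp1_2, DOX libraries lay below every 2iL library for Vim and within the 2iL range for Zeb1. Vim was lower without DOX than in 2iL (log2 fold change -1.67 ± 0.44, adjusted p = 0.00975, quasi-likelihood). That call was kept in 8 of 10 fits that each left out 1 library. Snai1 was higher with DOX than in 2iL (8.67 ± 2.41 and 1.58 ± 0.606 CPM, log2 fold change 2.44, adjusted p = 0.00975, quasi-likelihood), and DOX against no DOX did not pass (1.07, adjusted p = 0.447).

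**Figure D3:**
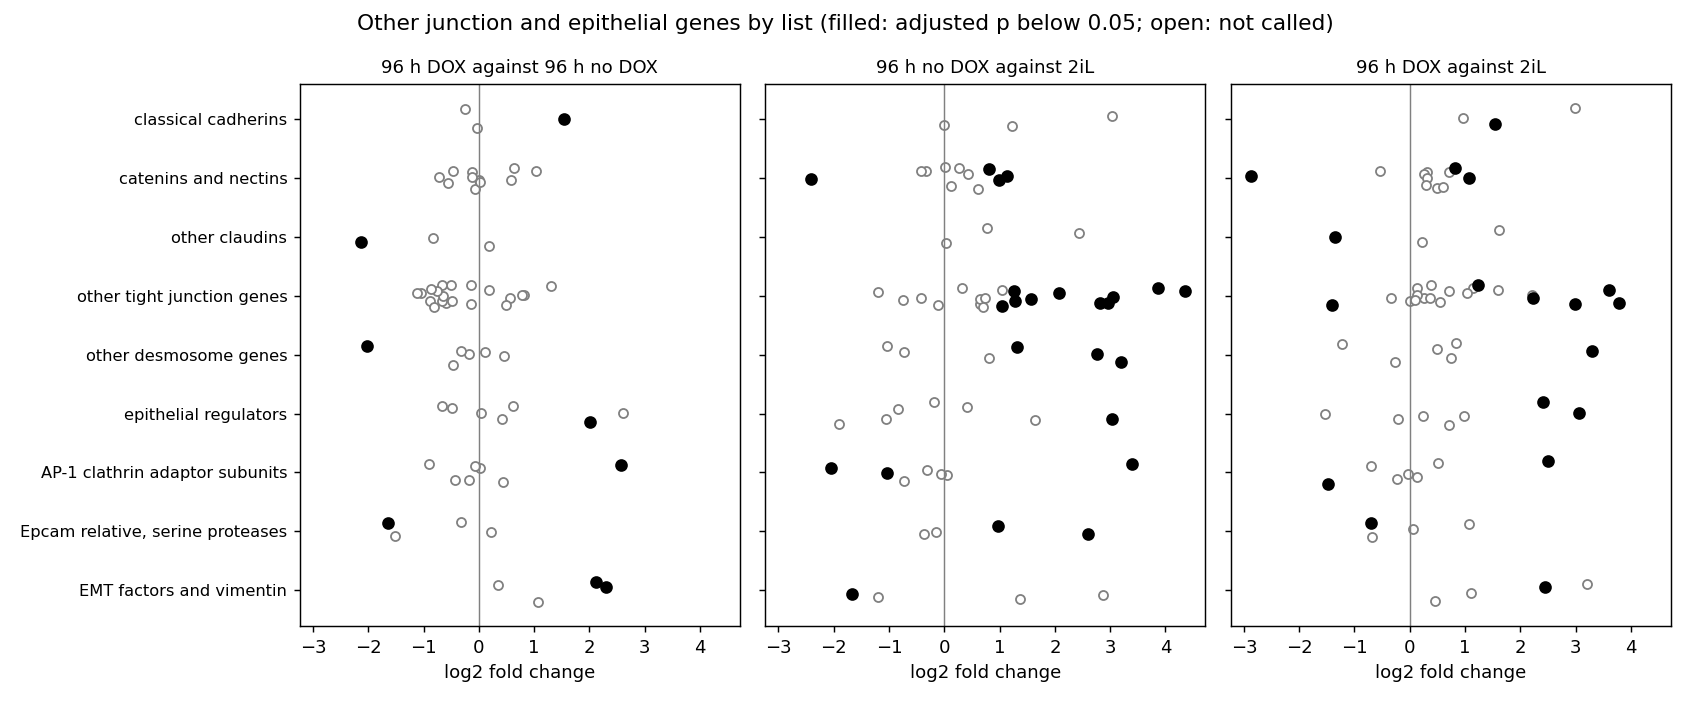
Log2 fold changes of the 65 tested junction genes by role in the 3 comparisons (96 h DOX against 96 h no DOX, 96 h no DOX against 2iL, 96 h DOX against 2iL); each point is 1 gene, and filled points passed edgeR's quasi-likelihood test at an adjusted p below 0.05. Of the tight junction genes, 10 of 20 passed as higher without DOX than in 2iL, and 0 passed with DOX against no DOX.

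Markers of other cell types differed between the groups as well. Summed over 10 primitive endoderm markers, unscaled CPM was 155 to 322 with DOX, against 10.3 to 12.7 without DOX and 16.3 to 25.4 in 2iL. None of the 10 was at 0 in a DOX library, and Gata6 held 47.8, 49.2 and 66.2 CPM there (exp1_1, exp2_1, exp1_2). Libraries without DOX had 2 to 6 of the 10 at 0, and 2iL libraries 2 to 7. Of 9 tested, 8 rose with DOX against no DOX. The sum of 8 neural markers was 363 to 840 CPM with DOX, against 1219 to 1802 CPM without DOX and 231 to 751 CPM in 2iL. Tubb3 alone held 122 to 568 CPM with DOX, 551 to 1177 CPM without DOX and 167 to 681 CPM in 2iL. Of 7 neural markers tested, 2 were called lower with DOX against no DOX and 0 higher. With DOX against 2iL, 4 of the 7 were called higher and 0 lower, although the sums overlapped.

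The sum of 8 ES cell markers was 1275 to 1593 CPM with DOX, against 701 to 811 CPM without DOX and 1452 to 1644 CPM in 2iL, with none at 0. That sum holds opposite changes. Utf1 held 583 to 691 CPM with DOX and 99.0 to 137 CPM in 2iL, and Nanog 21.1 to 55.8 and 179 to 237 CPM. With DOX against 2iL, 1 of the 8 was called higher and 4 lower. The sum of 8 trophoblast markers was 70.2 to 118 CPM with DOX, 81.5 to 112 CPM without DOX and 106 to 138 CPM in 2iL. This sum holds opposite changes too. Tfap2c held 17.5 to 33.5 CPM with DOX and 67.5 to 80.8 CPM in 2iL, and Krt18 18.3 to 38.0 and 8.47 to 11.6 CPM. Of 5 tested, 1 was called higher and 1 lower in each 96 h group against 2iL. Elf5 was at 0 in each of the 10 libraries. The part of these marker changes in the junction gene results was not tested.

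**Figure D4:**
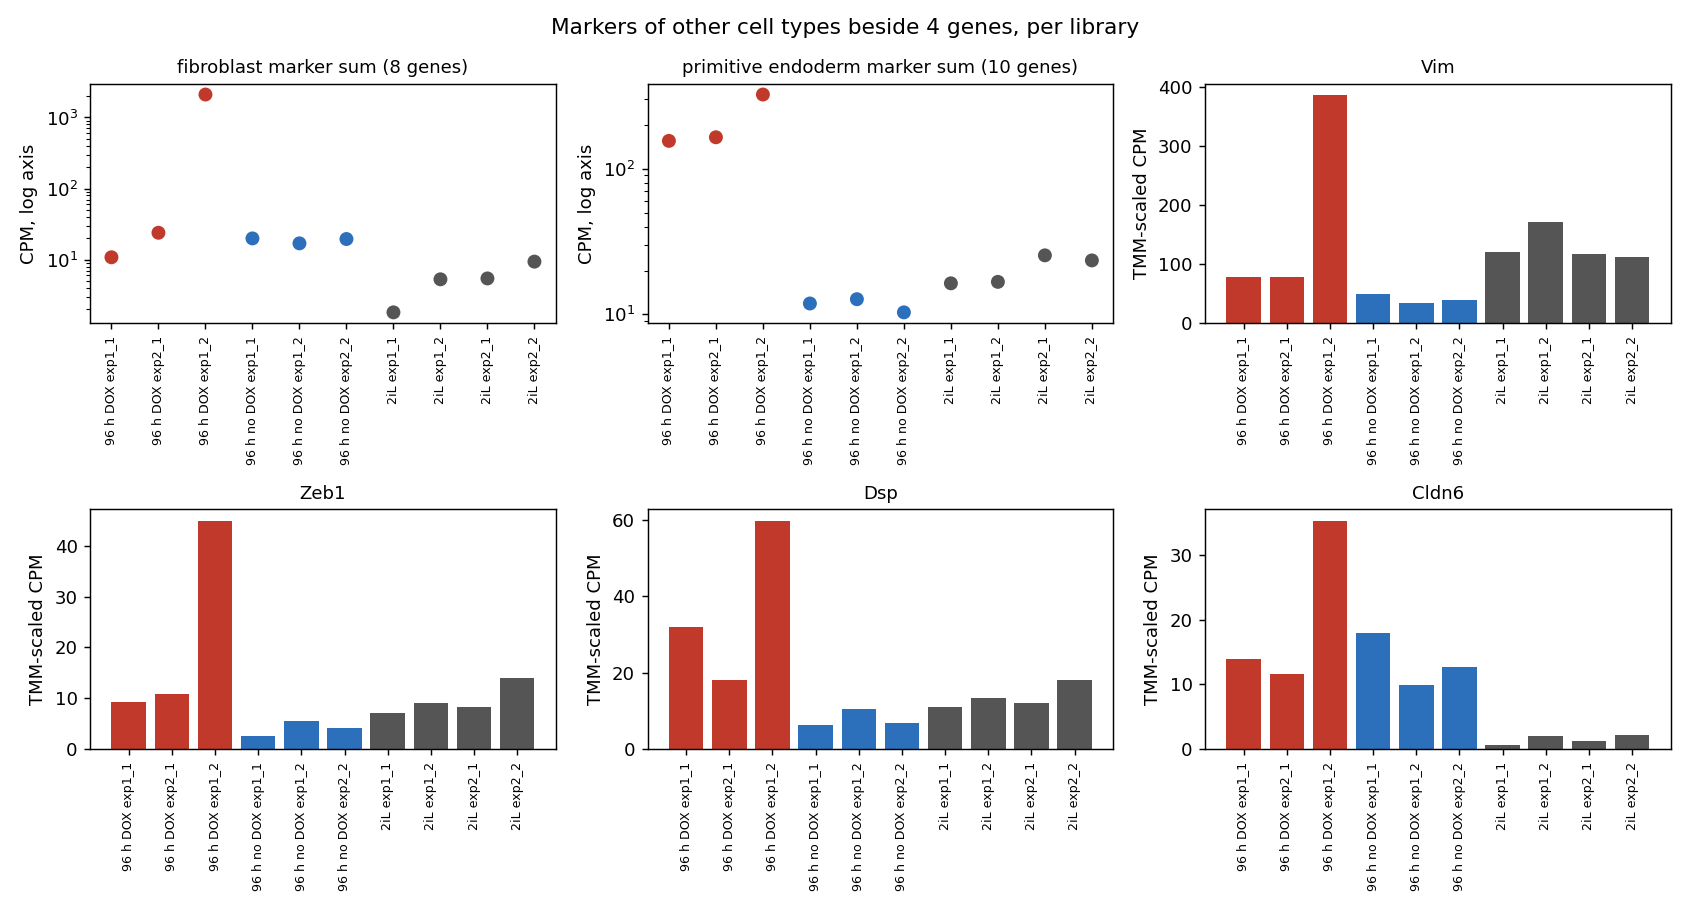
Summed fibroblast and primitive endoderm markers (unscaled CPM, log axis) and levels of Vim, Zeb1, Dsp and Cldn6 (TMM-scaled CPM) in each library, ordered 96 h DOX, 96 h no DOX, 2iL. The fibroblast sum is 2102 CPM in 96 h DOX exp1_2 and at most 23.9 CPM elsewhere, and the primitive endoderm sum is 155 CPM or more in all 3 DOX libraries.

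Genes whose levels ran most like 4 of the junction genes over the 10 libraries were listed by the root mean square difference of centred log2(CPM + 1), among 7733 or 7734 genes. For Cdh1 these were Coro1c, Mdm2 and Gins2, with differences of 0.25, 0.26 and 0.27 log2 units. For Cdh2 they were Pcyt1b, Ankrd49 and Cald1 (0.27, 0.31 and 0.32), and for Cldn6 they were Pi4k2b, Gnas and Itga3 (0.27, 0.38 and 0.42). For Jam2 the nearest were farther off: Lrrc34, Smad7 and Tbx3, at 0.70, 0.72 and 0.77. Tbx3, a factor of naive ES cells, averaged 96.7 CPM with DOX, 13.04 CPM without DOX and 214 CPM in 2iL, the same order as Jam2. Likeness here describes levels in 10 libraries that fall into 3 groups.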

How the data were processed

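Deposited files gave read counts per gene for 10 libraries and a table of CPM for the series. Per the submitters' processing notes, bcl2fastq, STAR 2.6.0a, HTSeq and the mm10 build were used, and per the labels' protocols the libraries hold 3′ ends of polyA RNA. Neither the annotation release nor the strand setting is given in the sources used here. The 5 HTSeq summary lines, 62.7% to 68.4% of reads (mostly reads with several alignments), were left out. The deposited CPM values lay within 0.01 of whole reads for 100% of entries, and reads recovered from them gave the same 348, 2289 and 1870 calls. IDs were matched to symbols for 30934 of 31053 genes, and positions are from GENCODE on GRCm38.

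Genes were kept with filterByExpr (minimum count 10), scaled by TMM (factors 0.911 to 1.09) and fitted with edgeR 4.0.16 in R 4.3.3 by quasi-likelihood with robust dispersion over all 10 libraries. The 3 comparisons are contrasts of group means, with Benjamini-Hochberg adjustment over 11215 genes and calls at an adjusted p below 0.05. Standard errors come from the fold change and the F statistic. Marker sums and Esrrb are CPM without TMM scaling. Named genes outside the 10 were up to 2 per direction, list and comparison with the smallest adjusted p and at least 5 CPM in the higher group; Ctnnb1, Esrp2 and the other values outside that rule were chosen after they were seen. Counting limits cover counting error only. The fit of DOX against no DOX was checked on simulated data. It called 23% of 100 genes changed by 1 on the log2 scale and 87% of 100 changed by 2. Of its calls, 2.65% were false. Changes of the smaller size were thus mostly missed there. The simulated libraries were independent and had the fitted dispersions, and only genes averaging at least 10 CPM were changed. They held no shared cultures and no library with added markers such as 96 h DOX exp1_2. The rates need not hold for the real libraries or for genes with fewer reads, such as Cdh2. Alternatives used limma 3.58.1 and DESeq2 1.42.0. The genes, lists and motifs were chosen with earlier results of these data known.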

Additional observations from a re-analysis of the deposited data

Results flagged for a closer look

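The 31 genes checked were the 10 and the 21 others picked by the rule for named genes. Of these 21, Pkp2 and Spint1 are not described above. Dixon's test took the gap to the nearest library over the range of the group. By it, 2 of the 31 genes had a 2iL library far from the other 3. Chance gives such a gap in about 1 in 20 groups. Grhl2 held 10.4 CPM in 2iL exp2_2, against 2.33, 2.05 and 2.76 CPM in the others, a gap of 0.914 of the range. Vim held 172 CPM in 2iL exp1_2, against 120, 118 and 112 CPM in the others, a gap of 0.868 of the range. When that library was left out, neither gene lost its call without DOX against 2iL; the log2 fold change of Grhl2 became 3.86, against 3.02 with all libraries.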

How the results depend on the processing

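No called value changed sign under the alternatives run. Among values not called, sign changed in 1 alternative each for Cdh1 without DOX against 2iL, Cdh2 with DOX against 2iL and Cldn6 with DOX against no DOX, and in 2 for Cldn4 without DOX against 2iL. In all, 565 of 597 single values for the 10 genes kept their side of the threshold. That tally includes the fit on reads recovered from the CPM values. Those reads equal the counts, so that fit could not differ. With DOX against no DOX, 348 genes were called. The count was 564 with no filter, 563 with DESeq2, 212 with only the 2 compared groups, 108 in experiment 1 alone and 159 with the experiment and number together as a replicate block. It was 161 to 358 with 1 library left out. Of the 10 genes, 6 were called there, 2 with that replicate block and 2 in experiment 1 alone (Dsp and Jam2 in both), and 3 to 6 with 1 library left out. Without DOX against 2iL, 2289 genes were called, 1226 in experiment 1 alone and 1779 to 2718 with 1 library left out, and the 6 calls among the 10 genes were kept in each alternative. With DOX against 2iL, 1870 genes were called, 926 in experiment 1 alone and 1408 to 1916 with 1 library left out. The 7 calls among the 10 genes became 4 without 96 h DOX exp1_2, and Cdh1 was added with no filter (adjusted p = 0.0107), DESeq2 (0.0434) or limma-voom (0.0440). The causes were not tested. Experiment alone as a replicate block gave 347, 2244 and 1815 genes. Libraries of the same experiment and number did not all deviate together (correlations -0.10 to 0.23 over 8 pairs). Such correlations cannot show whether these libraries shared a culture or handling. The fit with experiment and number as a replicate block therefore stands beside the main fit. Cdh2 could not be tested at a minimum count of 30. Low reads limit Cdh2, Cldn6 in 2iL and Jam2 without DOX, and the shallow 96 h DOX exp1_2 limits each DOX mean.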
